A study of Homo sapiens with 18 samples.

Results

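The genes described here encode the proteins of the cytoplasmic ribosome. They were chosen by symbol, as protein-coding genes named RPL or RPS with a number and at most 1 further letter, together with RPLP0, RPLP1, RPLP2 and RPSA, which gave 81 of 19974 annotated protein-coding genes. Of these, 49 encode proteins of the large subunit, stalk proteins included, and 32 encode proteins of the small subunit. Ribosomal S6 kinases and pseudogenes were left out. Membership followed the symbols alone, but the set was proposed with earlier results of these data known.

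The study mapped the binding of TLE3, a Groucho family corepressor that reaches DNA through other transcription factors, and of FOXA1, a forkhead protein that can open closed chromatin in luminal cells, by chromatin immunoprecipitation and sequencing (ChIP-seq). The cells were 3 established, unmodified breast cancer lines with no treatment named: MDA-MB-453, which lacks the estrogen receptor, SKBR3, which carries an ERBB2 amplification, and T47D, which expresses the estrogen receptor. There were 2 replicates of each factor and line, giving 12 peak lists, and 6 input samples were not used here. Cells for TLE3 received an additional crosslinker before formaldehyde, so crosslinking and antibody both differ between the factors and cannot be told apart from the factor itself. The labels call the replicates biological but do not say how they were grown, so the p-values below measure only the spread between these libraries.

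Ribosomal protein genes are transcribed at a high rate in dividing cells, and their products are assembled on ribosomal RNA in the nucleolus in nearly equal amounts. Their promoters are compact and open in almost all cell types, and their transcripts usually begin with a C followed by a run of pyrimidines, the TOP motif, through which the mTOR pathway controls their translation. They were therefore taken as a background of active promoters that are not specific to the luminal lineage. The naming rule also took in paralogs with an L suffix, such as RPL10L and RPL39L, to which this may not apply. No expression was measured here.

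FOXA1 lists held 107598 to 188029 peaks and TLE3 lists 21149 to 94363, and the lists hold no counts of reads, so the depth behind them is unknown. Peak lists show binding and not expression. All 8 luminal keratin and transcription factor genes had a FOXA1 site within 10 kb in each line. Of 7 basal and mesenchymal genes, 5 had one for T47D, 4 for MDA-MB-453 and 3 for SKBR3. Such sites were common, near 75.6% of all protein-coding genes for T47D, 78.5% for MDA-MB-453 and 63.9% for SKBR3. The direction fitted the labelled breast epithelial type, but so few markers beside such high shares are weak evidence of it. The library labelled SKBR3 TLE3 replicate 2 stood apart from the other 5 TLE3 libraries. Only 21.7% of its peaks overlapped a FOXA1 site of its line, against 71.2% to 98.5% in the others, and its peaks had a median width of 629 bp, against 326 to 400 bp. TLE3 results are therefore given with and without it.

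Promoters of 5 members are printed, each from 150 bases before to 20 bases after the annotated start, 5′ to 3′, because they show starts with and without peaks of each factor. The sequence under the far-end peaks described below was not used here. They are RefSeq sequences of GRCh38.p14, and a promoter was matched by gene identifier for 64 of the 81 members. RPL4 (chr15:66504836-66505005 on the minus strand) and RPS27L (chr15:63157458-63157627 on the minus strand) had TLE3 peaks at the start in several libraries. The centres of the RPL4 peaks lay outside the printed bases. RPS18 (chr6:33271925-33272094 on the plus strand) had high-scoring FOXA1 peaks there in all 6 libraries. RPLP0 (chr12:120201092-120201261 on the minus strand) had a high-scoring start peak in the SKBR3 TLE3 replicate 2 list. RPL24 (chr3:101686699-101686868 on the minus strand) had no peak in any list. Capitals mark matches to the ETS core CCGGAAG, the SP1 box GGGCGGG or the YY1 core AAGATGG on either strand.
RPL4: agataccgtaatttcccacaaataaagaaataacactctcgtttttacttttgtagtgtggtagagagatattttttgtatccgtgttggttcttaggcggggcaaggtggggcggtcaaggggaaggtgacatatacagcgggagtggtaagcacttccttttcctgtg
RPS27L: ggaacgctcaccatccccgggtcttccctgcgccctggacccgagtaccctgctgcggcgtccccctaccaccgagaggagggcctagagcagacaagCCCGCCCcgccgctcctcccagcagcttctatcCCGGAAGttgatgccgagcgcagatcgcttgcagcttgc
RPS18: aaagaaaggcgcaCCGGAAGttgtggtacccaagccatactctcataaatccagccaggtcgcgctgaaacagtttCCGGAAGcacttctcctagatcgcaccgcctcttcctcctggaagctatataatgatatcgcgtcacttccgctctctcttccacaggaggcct
RPLP0: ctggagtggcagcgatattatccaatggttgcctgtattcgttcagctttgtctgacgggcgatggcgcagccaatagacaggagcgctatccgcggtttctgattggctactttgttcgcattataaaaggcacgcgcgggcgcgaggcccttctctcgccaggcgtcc
RPL24: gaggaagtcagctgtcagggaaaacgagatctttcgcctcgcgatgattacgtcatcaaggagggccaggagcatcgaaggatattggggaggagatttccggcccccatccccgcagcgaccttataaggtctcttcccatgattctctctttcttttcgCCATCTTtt

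Letters searched over the full 300 bases, from 250 before to 50 after the start, gave the following shares. The forkhead core TGTTTAC, the kind of sequence FOXA1 recognises, was found on either strand in 0 of the 64 member promoters, and in 2.62% of all 15812 promoters in the table. The ETS core was in 22 member promoters (34.4%, against 14.2% of all promoters) and the YY1 core in 8 (12.5%, against 6.40%). The SP1 box was in 18 (28.1%, against 44.4%). A C at the annotated start within a run of at least 5 pyrimidines, a proxy for the TOP motif that was chosen after the values were seen, was present in 42 (65.6%, against 4.60%). These are matches of letters and not sites of binding. Each motif was counted on its own, so a stretch in which motifs overlap could count for both.

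FOXA1 peaks were common at these genes. A gene-end peak is one whose centre lay within 1 kb of either annotated end of the gene. In MDA-MB-453, 73 and 58 of the 81 genes had a FOXA1 gene-end peak in replicates 1 and 2, where 54.9% and 45.1% of all protein-coding genes had one. In SKBR3 the counts were 36 and 47 genes, beside 29.1% and 31.3% of all protein-coding genes. T47D had 68 and 53 genes, beside 49.8% and 42.8%. The share of ribosomal protein genes was thus above the share of all protein-coding genes in 6 of 6 FOXA1 libraries, with a mean of 68.9% ± 16.8 (SD, n = 6) against 42.2% ± 10.2 (SD, n = 6). It was lowest in the SKBR3 libraries, at 44.4% and 58.0%, and highest in MDA-MB-453 replicate 1, at 90.1%.

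Within each line, TLE3 peaks were found at fewer of the genes than FOXA1 peaks in 5 of 6 libraries, from lists that were also shorter than the FOXA1 lists. In MDA-MB-453, 11 and 5 of the genes had a TLE3 gene-end peak in replicates 1 and 2, beside 11.6% and 4.50% of all protein-coding genes. T47D had 19 and 52, beside 20.3% and 45.8%. SKBR3 replicate 1 had 2, beside 6.11%, and the library labelled SKBR3 TLE3 replicate 2 had 70, beside 57.0%. As a share of the 81 genes these are 13.6%, 6.17%, 23.5%, 64.2%, 2.47% and 86.4% in the same order. In MDA-MB-453 and in T47D replicate 1 the shares were a little above those of all protein-coding genes, and in SKBR3 replicate 1 the share was lower. The 2 lists with high shares, T47D replicate 2 and SKBR3 replicate 2, were also the longest TLE3 lists, and T47D TLE3 replicate 2 was 1 gene short of T47D FOXA1 replicate 2 and above both SKBR3 FOXA1 libraries. The mean was 32.7% ± 34.5 (SD, n = 6) against 24.2% ± 22.1 for all protein-coding genes, and 22.0% ± 24.9 (SD, n = 5) against 17.7% ± 16.9 without SKBR3 TLE3 replicate 2.

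**Figure D1:**
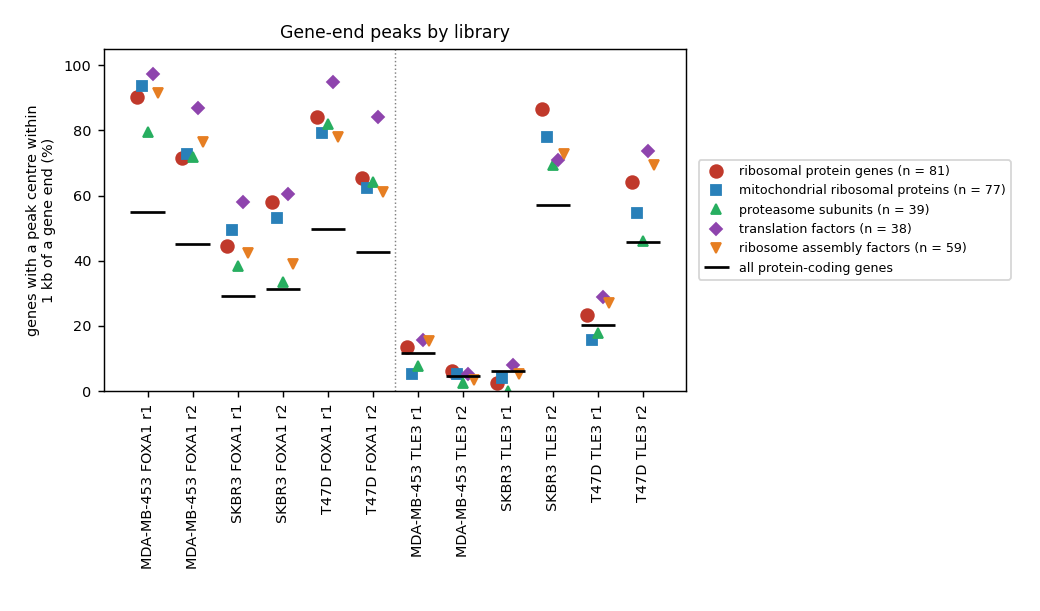
Percent of genes with a peak centre within 1 kb of a gene end (vertical axis) in each of the 12 libraries (horizontal axis; r1 and r2 are replicates), for ribosomal protein genes and 4 other housekeeping lists (symbols) and all protein-coding genes (black bars). Ribosomal protein genes lie above the bar in all 6 FOXA1 libraries and, among TLE3 libraries, highest in SKBR3 replicate 2 at 86.4%.

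Gene starts alone were counted for the 64 members and 15812 protein-coding genes whose strand is given. In MDA-MB-453, 57 and 43 of the 64 had a FOXA1 peak within 1 kb of the start, beside 52.3% and 42.0% of all such genes. In SKBR3 there were 21 and 32, beside 24.3% and 26.4%, and in T47D 52 and 37, beside 46.9% and 38.3%. The share of members was again above that of all genes in 6 of 6 FOXA1 libraries. For TLE3 there were 7 and 3 in MDA-MB-453, beside 9.20% and 3.13%, and 9 and 37 in T47D, beside 18.8% and 44.5%. SKBR3 TLE3 replicate 1 had 0 of 64, beside 4.50%, and replicate 2 had 54, beside 53.2%. The 37 genes of T47D TLE3 replicate 2 equal in number those of T47D FOXA1 replicate 2. In T47D TLE3 replicate 1 the 9 genes are 14.1% of members, under the share of all genes, whereas with either end counted the members' share was a little above it.

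At the starts, FOXA1 peaks lay just upstream. The median peak centre was between 143 and 87 bp before the annotated start in the 6 FOXA1 libraries, with 23 to 73 member peaks per library. In T47D TLE3 replicate 2 the median offset of 40 peaks was -161.5 bp, before the start, and in SKBR3 TLE3 replicate 2 the median of 61 peaks was 98 bp before it. Medians over few peaks varied in side: T47D TLE3 replicate 1 had 156 bp before the start (9 peaks). MDA-MB-453 TLE3 had 72 bp after it in replicate 1 (7 peaks) and 8 bp before it in replicate 2 (3 peaks). The middle 50% of the peaks of SKBR3 TLE3 replicate 2 lay between 260 bp before and 118 bp after the start, and those of T47D TLE3 replicate 2 between 250 and 65.5 bp before it. Member peaks were wider in SKBR3 TLE3 replicate 2, with a median of 741.5 bp, than in the other 11 libraries, with medians of 282 to 463 bp.

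**Figure D2:**
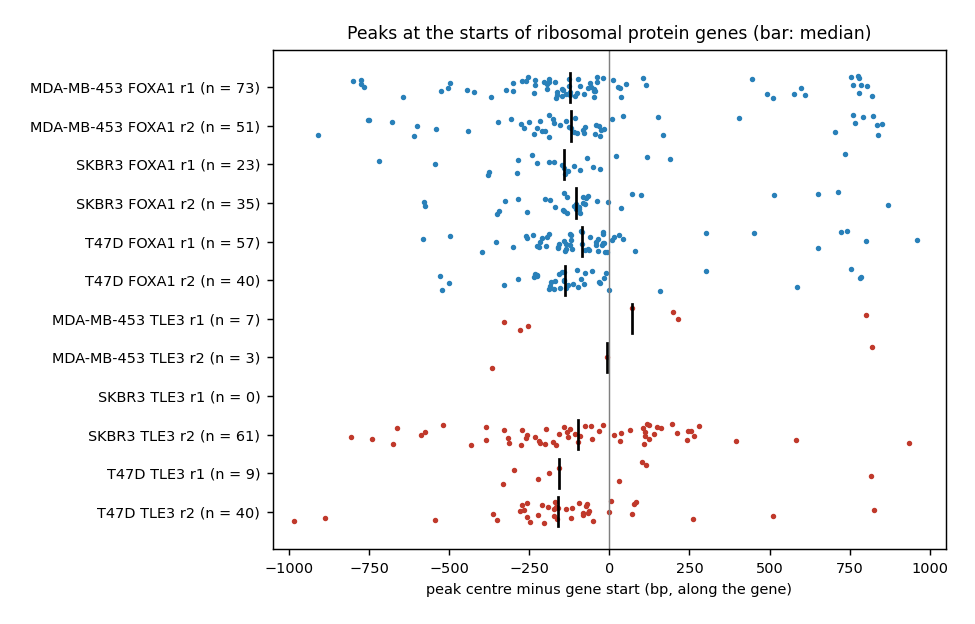
Distance of each peak centre from the annotated start, in bp along the gene (horizontal axis, negative before the start), for the 64 ribosomal protein genes with a known strand in each library (rows; blue for FOXA1, red for TLE3, black bar for the median; vertical scatter only separates points). FOXA1 medians lie 87 to 143 bp before the start, and SKBR3 TLE3 replicate 1 has no peak.

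The peaks of the members ranged from the bottom to the top of their lists by score. A peak's percentile is its rank in its own list, counted from the lowest score and given as a percent of the list. The score is the authors' own value. The best gene-end peaks of the members had a median percentile of 48.9 to 68.8 in the 6 FOXA1 libraries, and those of all protein-coding genes with a peak 47.3 to 59.9. In the TLE3 libraries the median for members ran from 23.1 to 80.4, the latter over 2 genes, and for all such genes from 28.6 to 48.1. Between 4 and 8 members per FOXA1 library had a peak above the 90th percentile, which is 8.51% to 15.1% of those with a peak, close to the 8.14% to 14.3% of all protein-coding genes with a peak. In SKBR3 TLE3 replicate 2 there were 11 such members, 15.7% of those with a peak, beside 11.5% of all protein-coding genes with a peak. They were RPL10, RPLP0, RPL38, RPL10A, RPL4, RPS20, RPL26, RPL36, RPL11, RPL5 and RPS15.

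The genes differed in the number of libraries with a peak. For FOXA1, 29 of the 81 (35.8%) had a gene-end peak in all 6 libraries, against 19.9% of all protein-coding genes, and 3 (3.70%, against 35.4%) had none, RPL10L and RPL24 among them. For TLE3 without SKBR3 replicate 2, 29 members (35.8%) had no peak, against 52.0% of all protein-coding genes. A further 29 (35.8%, against 23.8%) had a peak in 1 library only, which was T47D replicate 2 for each of them. There were 15 with peaks in 2 libraries (18.5%, against 14.4%). Only 4 had peaks in 3, 2 in 4 and 2 in all 5, which is 4.94%, 2.47% and 2.47% and near the 5.53%, 2.67% and 1.72% of all protein-coding genes. The map of members by library shows that few rows are filled in the TLE3 columns outside those of SKBR3 replicate 2 and T47D replicate 2.

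**Figure D3:**
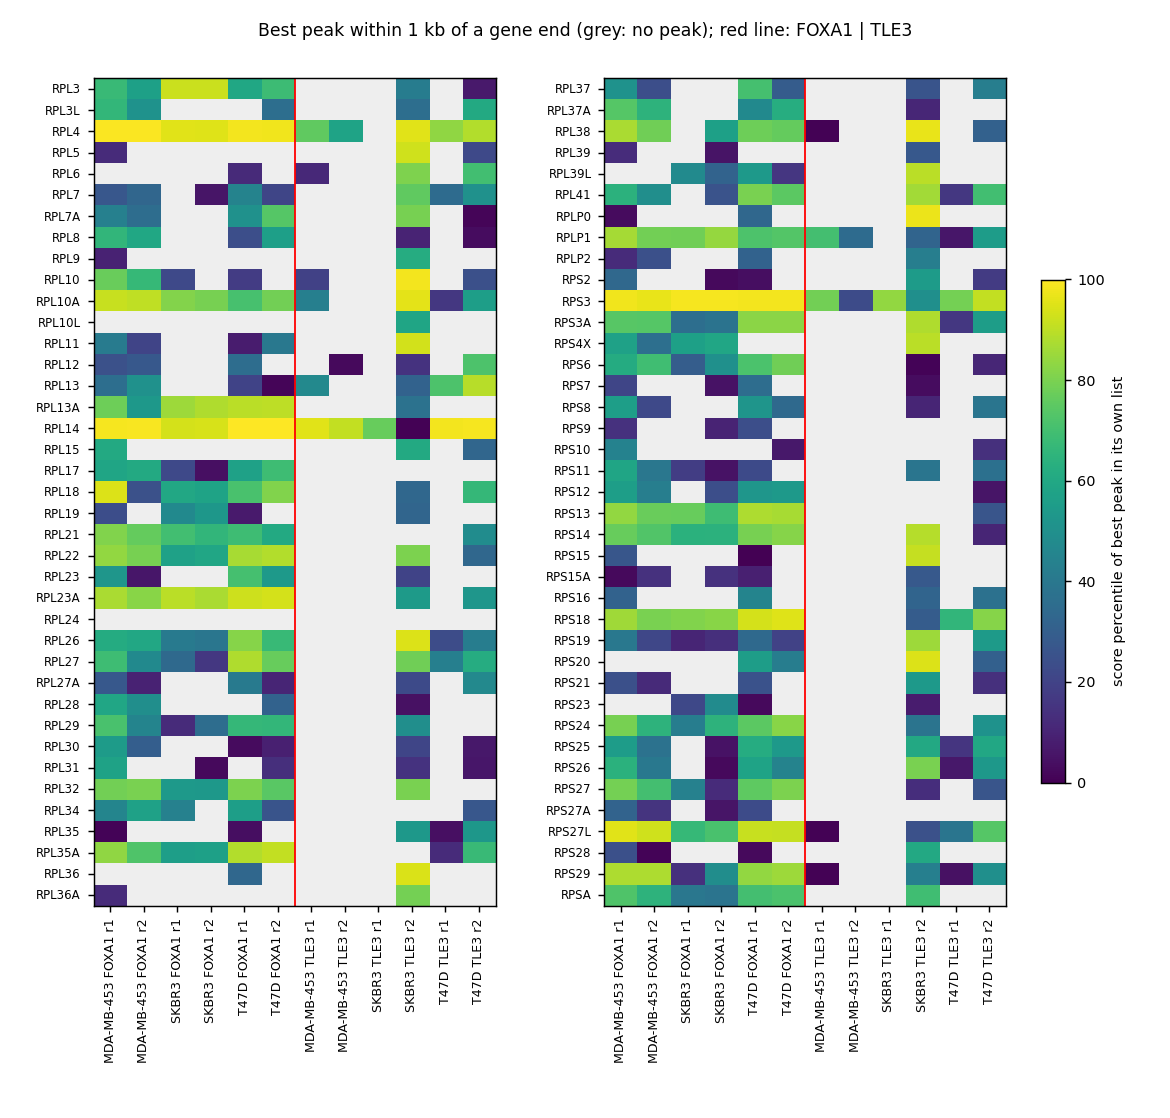
Rows are 78 ribosomal protein genes and columns the 12 libraries, with FOXA1 left and TLE3 right of the red line. Colour is the score percentile of the best gene-end peak, its rank from the lowest score as a percent of its list. Grey marks genes with no peak; RPL14, RPS3 and RPL4 are high across the FOXA1 columns, and SKBR3 TLE3 replicate 1 holds 2 genes.

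RPL14 and RPS3 were the members with TLE3 gene-end peaks in every library. RPL14, a protein of the large subunit (gene at chr3:40457339-40468587 on the plus strand), had its strongest peaks at the far end of the gene and not at its promoter. In all 6 FOXA1 libraries a peak centre lay 10820 to 10939 bp after the start, inside the annotated gene. Its percentiles were 98.8 and 98.9 in MDA-MB-453, 93.6 and 93.9 in SKBR3, and 99.96 and 99.97 in T47D. TLE3 peaks at the same place had percentiles of 95.4 and 91.0 in MDA-MB-453, 76.9 in SKBR3 replicate 1, and 98.1 and 98.6 in T47D. The list of SKBR3 TLE3 replicate 2 had no peak there and a single low one, at percentile 0.688, at the start. No end of another annotated gene lay within 1 kb of these peaks.

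RPS3, a small subunit protein at the messenger RNA entry channel (gene at chr11:75399518-75422302 on the plus strand), showed the same layout. Its far-end peak was centred 22844 to 23049 bp after the start over the 12 libraries, where an end of KLHL35 is also within 1 kb. FOXA1 percentiles there were 98.0 and 96.8 in MDA-MB-453, 98.6 and 98.5 in SKBR3, and 98.1 and 98.4 in T47D. TLE3 percentiles were 78.7 and 22.8 in MDA-MB-453, 83.8 and 11.6 in SKBR3, and 79.1 and 90.8 in T47D. FOXA1 percentiles at this peak were all near the top of the scale, which leaves little room for replicates to differ. Those of TLE3 replicates in MDA-MB-453 and SKBR3 lay far apart, but these come from lists of different length. SKBR3 TLE3 replicate 2 also had a peak at the start, at percentile 49.8, where the other 5 TLE3 libraries had none.

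**Figure D4:**
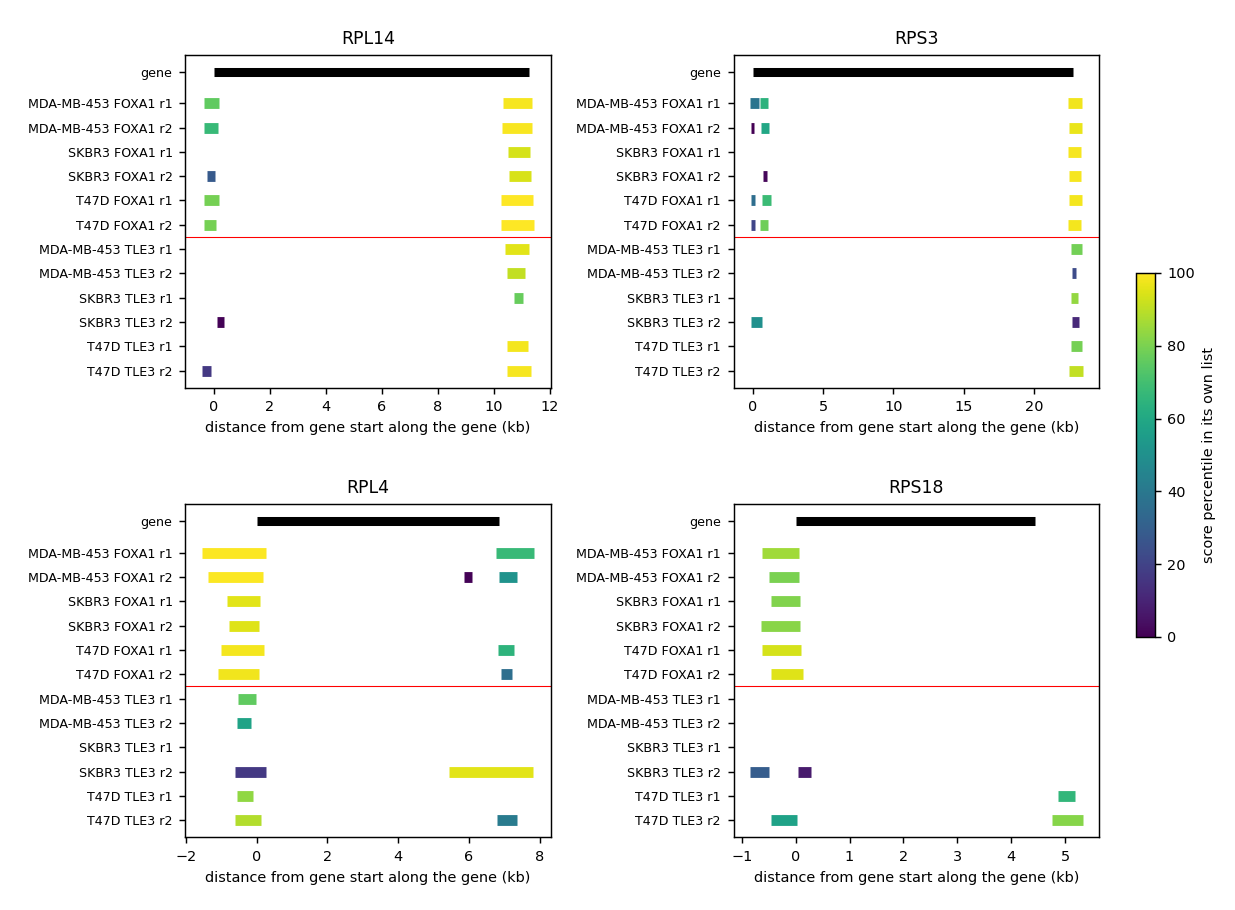
Gene-end peaks of RPL14, RPS3, RPL4 and RPS18 in the 12 libraries (rows; FOXA1 above and TLE3 below the red line), drawn to scale by distance from the annotated start along the gene (horizontal axis, kb) and coloured by score percentile in their own list; the black bar is the gene. The strongest peaks of RPL14 and RPS3 lie at the far end, and those of RPL4 at the start in FOXA1 libraries.

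RPL4 had the highest FOXA1 percentile at a start in each of the 6 libraries, among the 64 members with a known strand. It encodes a large subunit protein that reaches into the peptide exit tunnel. The start peaks also lie within 1 kb of an end of ZWILCH, so they cannot be assigned to either gene. Their centres lay 350 to 644 bp before the start for FOXA1 and 168 to 367 bp before it for TLE3, outside the bases printed above. FOXA1 percentiles were 99.3 and 99.3 in MDA-MB-453, 95.4 and 95.3 in SKBR3, and 98.4 and 97.8 in T47D. TLE3 percentiles at the start were 75.6 and 58.1 in MDA-MB-453 and 83.3 and 88.5 in T47D. SKBR3 TLE3 replicate 1 had no peak, and replicate 2 had one at percentile 16.6 at the start and another at 95.5 at the far end, near SNAPC5.

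The stalk proteins differed among themselves. RPLP1, an acidic stalk protein that helps recruit elongation factors, had TLE3 peaks 801 to 825 bp after its start in both MDA-MB-453 libraries, at percentiles 70.0 and 35.1, and in both T47D libraries, at 5.87 and 55.1. FOXA1 peaks at this place were present in MDA-MB-453 (86.3 and 78.8) and T47D (71.9 and 73.4). The SKBR3 libraries had FOXA1 peaks only at the far end of RPLP1, the best at 78.4 and 84.1. RPLP0, the stalk base that anchors the other P proteins, had FOXA1 peaks in 2 libraries, at 2.95 in MDA-MB-453 replicate 1 and 33.3 in T47D replicate 1. Its only TLE3 peaks were in SKBR3 replicate 2, at 97.1 over the start and 49.5 at the far end. It thus had no gene-end peak in the 5 other TLE3 lists or in either SKBR3 FOXA1 list.

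Other members with TLE3 peaks outside SKBR3 replicate 2 split between starts and far ends. RPS27L, a paralog of RPS27 induced by p53, had start peaks at percentile 0.706 in MDA-MB-453 replicate 1 and at 38.8 and 73.7 in T47D, beside FOXA1 percentiles of 67.0 to 95.3. RPS29, a small zinc-binding protein of the small subunit, had start peaks in the same 3 TLE3 libraries, at 0.768, 4.38 and 49.7. RPL27 of the large subunit had start peaks at 43.2 and 61.9 in T47D. RPL13, RPL10A and RPL41 of the large subunit instead had their best TLE3 peaks of these libraries at the far end. For RPL13 these were at 47.3 in MDA-MB-453 replicate 1 and at 71.9 and 89.4 in T47D. FOXA1 had peaks at the same end at 29.9 and 14.4 in MDA-MB-453, 1 at 0.520 in T47D replicate 1 and none in T47D replicate 2. Percentiles of lists of such different length are not on a common scale. In RPL10A the peaks lay past the annotated end, near MIR7111, at 43.2 in MDA-MB-453 replicate 1 and 16.2 and 55.9 in T47D. RPL41, which encodes the smallest ribosomal protein, had them at 16.0 and 69.6 in T47D, near an end of ZC3H10.

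RPS18, a protein of the head of the small subunit, had FOXA1 start peaks at 85.8 and 79.7 in MDA-MB-453, 81.0 and 82.2 in SKBR3, and 93.7 and 95.3 in T47D. This start is shared with an end of VPS52. TLE3 had a start peak there at 57.5 in T47D replicate 2, and the list of SKBR3 replicate 2 had 2 low peaks, at 29.2 and 7.08. Both T47D TLE3 lists had a peak past the far end of RPS18, near B3GALT4, at 65.8 and 82.0, where no FOXA1 list had a peak. In T47D replicate 1 FOXA1 was thus found at the start of RPS18 alone and TLE3 at the far end alone.

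Among the genes kept for description whatever their values, RPL3, which shapes the peptidyl transferase centre, had its best FOXA1 peak at the far end in SKBR3 (91.8 and 92.1) and T47D (59.6 and 68.6), and at the start in MDA-MB-453 (67.9 and 56.8). RPL13A of the large subunit had far-end FOXA1 peaks at 85.2 and 87.9 in SKBR3 with no start peak there. RPSA, the small subunit protein also known as the laminin receptor precursor, had FOXA1 start peaks in all 6 libraries, the best of each between 38.4 and 72.6. RPS6, the phosphorylation target of S6 kinase, had best FOXA1 peaks of 29.6 to 78.2. For TLE3, RPL13A and RPSA had a peak in SKBR3 replicate 2 alone (37.7 and 69.2), and RPL3 and RPS6 there and, at 7.01 and 10.6, in T47D replicate 2. RPL10, which joins the large subunit late in its assembly, had the highest member percentile of SKBR3 TLE3 replicate 2, 98.1, and TLE3 peaks at 19.3 in MDA-MB-453 replicate 1 and 24.4 in T47D replicate 2.

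Some members had FOXA1 peaks and no TLE3 peak in any of the 6 lists. These were RPL17, with FOXA1 peaks in 6 libraries, RPS27A, with 4, and RPS9, with 3. RPL17, a large subunit protein at the exit tunnel, had a FOXA1 peak 97 to 140 bp before the start in all 6 libraries, at percentiles of 4.07 to 60.9. RPS27A, made as a fusion with ubiquitin, and RPS9 had percentiles of at most 31.7 and 24.1. RPL24, a large subunit protein, had no gene-end peak of either factor in any of the 12 libraries.

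A further 24 members (29.6%) had a TLE3 peak in SKBR3 replicate 2 and in no other TLE3 library, against 18.6% of all protein-coding genes. Besides RPLP0, those with high percentiles included RPL36 at percentile 94.5, RPL11, which binds 5S ribosomal RNA with RPL5, at 93.3, RPS15 at 91.3, the X-linked RPS4X at 89.8, the RPL39 paralog RPL39L at 89.8 and RPL32 at 79.9. In the SKBR3 FOXA1 lists, RPLP0, RPL36, RPL11 and RPS15 had no gene-end peak, whereas RPS4X, RPL39L and RPL32 had one in both replicates. Over all 70 members with a peak in this library, 41 (58.6%) had a gene-end peak in an SKBR3 FOXA1 list, against 46.5% of all protein-coding genes with a peak in it. Of the 100 member peaks of this library, 24 (24.0%) overlapped a FOXA1 site of SKBR3, beside 23.5% of all its gene-end peaks. In the other 5 TLE3 libraries 65.2% to 100% of member peaks did, beside 54.5% to 92.1% of all gene-end peaks. The 100% was 2 of 2 peaks in SKBR3 replicate 1. By single lists, SKBR3 FOXA1 replicates 1 and 2 overlapped 24 and 34 of the 100 peaks of SKBR3 TLE3 replicate 2. The shares for all peaks of that library were 23.6% and 24.8%. MDA-MB-453 FOXA1 overlapped 72 and 51, beside 37.4% and 30.3%, and T47D FOXA1 67 and 46, beside 28.4% and 25.8%. SKBR3 TLE3 replicate 1 overlapped 1 of them, beside 7.54%, and T47D TLE3 replicate 2 overlapped 44, beside 18.7%. These peaks were shared more often with FOXA1 lists of the other 2 lines than with the list of the same factor and line, which is also the shortest list, and the same was true of all peaks of the library. Whether the width, the low sharing and the promoter peaks of this library have 1 source was not tested.

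Sites, defined as merged regions that hold a peak of both replicates, showed FOXA1 close to most of the genes. Within 10 kb of a gene end there was a FOXA1 site for 77 of the 81 genes in MDA-MB-453, 66 in T47D and 54 in SKBR3, beside 78.5%, 75.6% and 63.9% of all protein-coding genes. As shares of the members these are 95.1%, 81.5% and 66.7%, so the excess over all genes was smaller than at the gene ends. Sites whose centre lay within 1 kb of a gene end were present for 57, 47 and 33 members, beside 43.6%, 39.2% and 25.0%.

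TLE3 sites within 10 kb were less frequent at these genes than at all protein-coding genes in each line. They were near 25 members in T47D, 8 in MDA-MB-453 and 6 in SKBR3, beside 41.0%, 20.5% and 13.9% of all protein-coding genes, which is 30.9%, 9.88% and 7.41% of the members. From replicate 1 of SKBR3 alone it was 11 members (13.6%), beside 24.5%, and from replicate 2 alone 77 (95.1%), beside 85.2%. The direction was thus opposite in the 2 SKBR3 replicates. The mean share over the lines was 16.0%. Without SKBR3 TLE3 replicate 1 it was 45.3%, and without T47D TLE3 replicate 1 it was 32.5%. In these 2 cases every peak of the replicate that was left counted as a site of its line. The members are short genes, with a median of 5015 bp against 24170.5 bp for all protein-coding genes. The stretch within 10 kb of either end is therefore shorter for them, and its part in these shares was not tested. At gene ends, TLE3 sites were at 19 members in T47D, 4 in MDA-MB-453 and 1 in SKBR3. As shares of the members these are 23.5%, 4.94% and 1.23%, beside 20.0%, 4.09% and 4.39% of all protein-coding genes. At gene ends the shares of members in T47D and MDA-MB-453 were thus near those of all genes. That of SKBR3, which rests on 1 member, was below.

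Most TLE3 sites near the members overlapped a FOXA1 site of the same line, as did those near other genes. Overlap was found for 8 of 8 sites in MDA-MB-453, beside 98.1% of the TLE3 sites within 10 kb of any protein-coding gene. These included sites near RPL4, RPL6, RPL14, RPL27, RPLP1, RPS3 and RPS28. In SKBR3 it was found for 4 of 6, beside 82.8%, and for 9 of 11 with replicate 1 alone, beside 86.3%, the exceptions in both being sites near RPL22 and RPS25. In T47D it was found for 25 of 32, beside 78.1%. The other 7 T47D sites included 5 at gene ends, those of RPL13, RPL35, RPL7 and RPS18 among them. RPL35, whose start is also near an end of ARPC5L, had a site centred 2 bp from the start, with TLE3 peaks at 4.17 and 52.9.

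A gene-by-gene comparison of the factors gave no call. Presence of a gene-end peak was permuted between factors within lines, an exact two-sided test whose smallest possible p is 0.00926. With Benjamini-Hochberg adjustment over 19974 genes, 0 genes were called with TLE3 lower (0.00%) and 0 with TLE3 higher (0.00%), and the lowest adjusted p of the exact test was 0.572. At least 3699 genes would have to reach the smallest p for any to pass, so the test has little power for single genes. At an unadjusted p under 0.05, 8 members had fewer TLE3 than FOXA1 libraries, beside 963 protein-coding genes (4.82%), and 0 had more, beside 7 (0.0350%). RPL17 had the smallest exact permutation p, 0.00926, with 6 FOXA1 and 0 TLE3 libraries. RPL13A, RPL21, RPL29, RPL32, RPS13 and RPSA were among those with 6 FOXA1 libraries and 1 TLE3 library (exact permutation p = 0.0278 each). Without SKBR3 TLE3 replicate 2, 0 genes were called by the exact permutation, with 2121 lower and 7 higher at an unadjusted p under 0.05. Of the members, 17 had an unadjusted p under 0.05 in that test, all with fewer TLE3 libraries, and the lowest adjusted p of the exact test was 0.261.

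List length weighed on the counts. When each list was cut to its 21149 best-scored peaks, the length of the shortest, FOXA1 gene-end peaks were left at 7 and 7 members in MDA-MB-453, 8 and 8 in SKBR3, and 12 and 11 in T47D, which is 8.64% to 14.8% against 5.01% to 8.51% of all protein-coding genes. The shares of members were above those of all genes in each of the 6 lists. TLE3 peaks were left at 4 and 4 members in MDA-MB-453 (4.94% each, against 3.38% and 3.83% of all protein-coding genes) and 2 in SKBR3 replicate 1 (2.47%, against 6.11%). In T47D they were left at 9 and 11 (11.1% and 13.6%, against 11.7% and 12.99%). Among these 5 lists the shares of the MDA-MB-453 and T47D lists were near those of all genes. The share of SKBR3 replicate 1, with 2 members, was below. SKBR3 replicate 2 had 25, or 30.9% against 12.2%. With equally long lists the mean share of members was 10.9% for FOXA1 and 11.3% for TLE3. The mean for TLE3 was thus not the lower, but it includes SKBR3 TLE3 replicate 2 at 30.9%. In each of the other 5 TLE3 lists the share, 2.47% to 13.6%, did not exceed that of either FOXA1 list of its line. RPL4, RPL14 and RPS3 were among the members left in all 6 FOXA1 lists. RPL14 and RPS3 were also left in 5 TLE3 lists, but not in that of SKBR3 replicate 2.

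**Figure D5:**
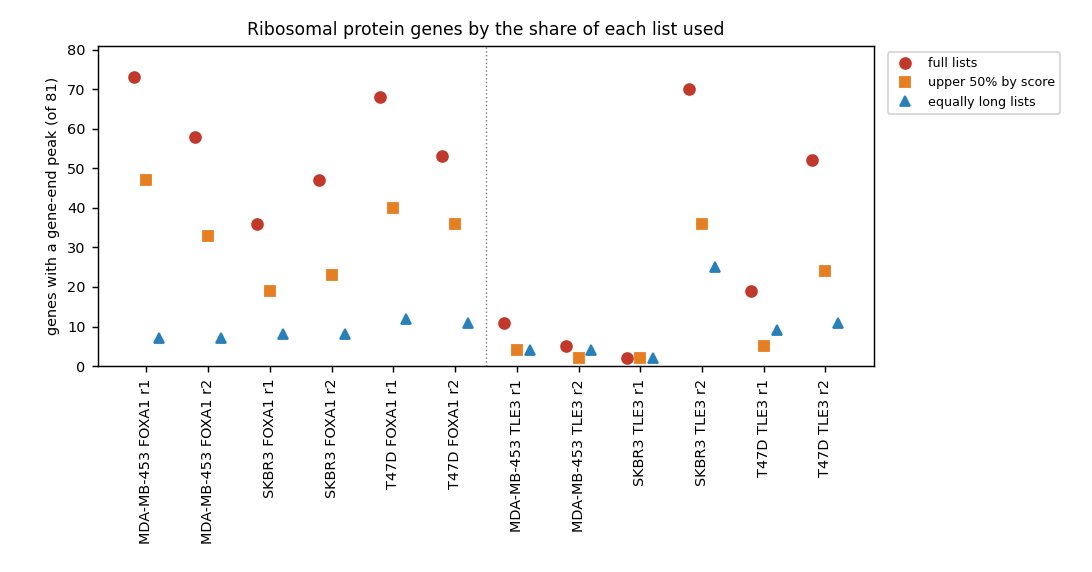
Number of the 81 ribosomal protein genes with a gene-end peak (vertical axis) in each library (horizontal axis), from the full list, its upper 50% by score, and the 21149 best-scored peaks. FOXA1 counts of 36 to 73 fall to 7 to 12 with equally long lists, where SKBR3 TLE3 replicate 2 has the highest count, 25.

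Other housekeeping lists gave shares on both sides of these. Over the 6 FOXA1 libraries the median share with a gene-end peak was 68.5% for ribosomal protein genes (range 44.4% to 90.1%), 67.5% for 77 mitochondrial ribosomal protein genes (49.4% to 93.5%), 67.9% for 39 proteasome subunit genes (33.3% to 82.1%) and 68.6% for 59 ribosome assembly factor genes (39.0% to 91.5%). It was 85.5% for 38 translation factor genes (57.9% to 97.4%) and 42.9% for 7 ribosomal protein genes outside the naming rule, such as RACK1 (28.6% to 42.9%). Over the 5 TLE3 libraries without SKBR3 replicate 2 the medians were 13.6%, 5.19%, 7.69%, 15.3%, 15.8% and 0% in the same order. In SKBR3 TLE3 replicate 2 ribosomal protein genes had the highest of these shares, 86.4%, followed by mitochondrial ribosomal protein genes at 77.9%. These shares were not tested against each other.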

How the data were processed

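Peak lists of 12 immunoprecipitated libraries were used, 1 list per library and not pooled over replicates. The submitters' processing notes name Trim Galore, BWA (0.7.5a), SAMtools, MACS2 and the build hg38. Caller settings, controls and filters were not given in the sources used here. The deposited lists give each interval, its name and a score that the authors made. Its lowest value was 2.00 to 2.04 and the quantity is not named, so it served only to rank peaks within a list. Depth is unknown, and list length can move with it. Of all peaks, 15 outside chromosomes 1 to 22 and X were left out.

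Gene ends came from a RefSeq table of GRCh38.p14, and strand from the promoter table, for 79.2% of protein-coding genes. Overlap means at least 1 bp. Groups followed the titles. Presence per gene was tested by exact permutation of factors within lines with Benjamini-Hochberg adjustment at a threshold of 0.05, and scripts were tested on simulated data (Python 3.11.15, numpy 2.4.6, pandas 2.3.3, scipy 1.17.1). The members and lists were chosen with earlier results of these data known. Genes were named by rule: up to 12 with TLE3 peaks in the most libraries other than SKBR3 TLE3 replicate 2, up to 8 each with FOXA1 peaks alone, with TLE3 in that library alone, with no peak, with TLE3 gene-end sites lacking FOXA1, or called in the test, and RPLP0, RPSA, RPS6, RPL3, RPL10, RPL13A and RPS27A. Other names complete a count and were chosen after their values were seen. Values of a few members are left out of the text and the map. Alternatives were score cuts, windows, gene starts, site definitions, each library left out, the member list and a replicate block.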

Additional observations from a re-analysis of the deposited data

How the results depend on the processing

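The gene-by-gene test called 0 genes under its 19 alternatives too, but its smallest possible p leaves it little room to call any, so these counts say nothing of how stable the test is. Genes at an unadjusted exact p under 0.05 numbered 970, and 196 to 2128 under the alternatives. A replicate block, over 64 arrangements with a smallest p of 0.0312, gave 0 calls, 196 genes at an unadjusted p under 0.05 and a lowest adjusted p of 0.942. Deviations of same-numbered FOXA1 and TLE3 libraries from their group means were compared over 19974 genes. They correlated at -0.08 in T47D, -0.01 in MDA-MB-453 and 0.03 in SKBR3. These values gave no sign that the numbers pair the libraries, but whether libraries shared a culture cannot be read from them. The mean share of members with a gene-end peak was 68.9% for FOXA1 and 32.7% for TLE3. It was 40.7% and 15.02% with the upper 50% of each list, and 10.9% and 11.3% with equally long lists. The last TLE3 mean includes SKBR3 TLE3 replicate 2 at 30.9%, beside 2.47% to 13.6% in the other 5 TLE3 lists. The mean share with a FOXA1 site within 10 kb, 81.1%, was 62.1% with the upper 50%, 18.9% with equally long lists and 96.3% within 50 kb. For TLE3 it was 16.0%, 4.53% with the upper 50%, 6.58% with equally long lists, 67.5% with sites from either replicate and 54.7% within 50 kb. Leaving out 1 library gave 16.0% to 45.3%, with 45.3% without SKBR3 TLE3 replicate 1 and 32.5% without T47D TLE3 replicate 1. There, every peak of the replicate that was left counted as a site of its line. These alternatives change the number of peaks or the distance by construction. Depth is unknown, 2 libraries per group limit the precision, and peak lists cannot separate absent binding from too few reads.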
